A study of Mus musculus with 4 samples.

Results

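Astrocyte nuclei were taken from single-nucleus RNA sequencing of the mouse cerebral cortex by a rule on the raw counts of unique molecular identifiers (UMIs) of each nucleus. A nucleus entered when Slc1a3, Aqp4, Gja1 and Ntsr2 together held at least 3 UMIs and at least 15 per 10000 of its UMIs, and when it held no UMI of Slc17a7, Gad1, Gad2, Pdgfra or Mog. Members were thus chosen by measured UMIs of these genes, whose levels are given only as descriptions. The rule took 505 of 35694 nuclei (1.41%), with 64 and 175 in the control libraries and 126 and 140 in the CrT-KO libraries. The marker criterion alone was met by 625 nuclei, and 120 of them were removed by an exclusion gene. The 4 libraries came from 4 adult males, on a C57Bl/6J background, with 1 animal per library and no treatment. Control animals were CrT+/y wild-type littermates, and CrT-KO animals were CrT-/y, hemizygous for a deletion within Slc6a8, the X-linked gene of the creatine transporter. The deletion was carried by every cell of the body, so the astrocytes were mutant in a brain in which neurons and other glia were mutant too.

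Astrocytes are the glial cells that take up the glutamate and potassium released by active neurons, join into networks through gap junctions, send endfeet to blood vessels, and store glycogen. They also supply neurons with lipoproteins, lactate and creatine precursors, and they carry receptors for glutamate, GABA and other transmitters. Creatine is made by the enzymes Gatm and Gamt, enters cells through Slc6a8, and buffers ATP through creatine kinases such as Ckb.

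The matrices held 52881807 and 58344131 UMIs in the control pair, against 65240843 and 51507483 UMIs in the CrT-KO pair, with 8282 to 9295 nuclei per library. Of these UMIs, the astrocyte nuclei held 131237 and 399553 in the control pair, against 307638 and 301155 in the CrT-KO pair, so control 1 was the shallowest of the 4 sums. Median UMIs per astrocyte nucleus were 1801 and 2157 in the control pair, against 2285 and 2038.5 in the CrT-KO pair, with medians of 1111 to 1255.5 detected genes. Slc6a8 was counted over all nuclei at 7.20 and 6.12 UMIs per 1000000 (CPM) in control libraries, and at 1.62 and 1.63 CPM in CrT-KO, and each library matched its label. Of the barcodes, 96 were found in more than 1 library, 2 astrocyte nuclei carried such a barcode, and none was shared between astrocyte nuclei. The Scrublet caller marked 1213 nuclei as doublets, 6 of them among the 505.

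The label of these nuclei was checked against 30 astrocyte markers that the rule did not use and against lists of markers of other cell types. The check held for most of the nuclei and failed for 108 of 505. In 397 nuclei (78.6%) the astrocyte list held more UMIs than any other list, and these are called astrocyte-led nuclei. They numbered 50 and 137 in the control pair, against 103 and 107 in the CrT-KO pair, or 78.1% (95% exact binomial interval 66.0 to 87.5%) and 78.3% (71.4 to 84.2%) of the members in control libraries, and 81.7% (73.9 to 88.1%) and 76.4% (68.5 to 83.2%) in CrT-KO. Intervals here and below cover counting error only. The microglia list led in 60 nuclei, the neuron list in 37, the oligodendrocyte list in 10 and the OPC (oligodendrocyte precursor) list in 1.

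Both kinds of nuclei lay far apart. The median astrocyte list share was 374 per 10000 UMIs in the astrocyte-led nuclei, and it was 0 in the nuclei led by the microglia list, whose median microglia list share was 101 per 10000. The nuclei led by the neuron list also held microglial UMIs, at a median of 49.6 per 10000. In all, 97 of 505 nuclei held under 30 UMIs per 10000 of the astrocyte list, while 210 held 200 to 400 and 153 held more.

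**Figure D1:**
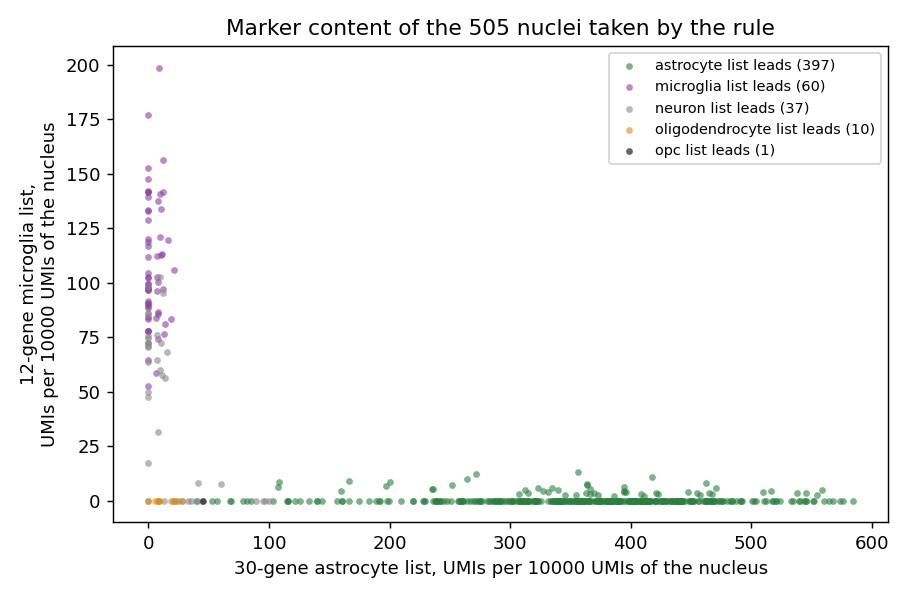
Each point is 1 of the 505 nuclei, placed by its UMIs of 30 astrocyte markers outside the rule (horizontal axis) and of 12 microglia markers (vertical axis), both per 10000 UMIs, and coloured by the list that holds most of its marker UMIs. The 397 astrocyte-led nuclei lie along the horizontal axis, and the 60 nuclei led by the microglia list lie along the vertical axis with little or none of the astrocyte list.

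Nuclei outside the astrocyte-led class sat at the edge of the rule. Slc1a3 was the only one of the 4 rule genes in 99 of 108 of them, and their median was 3 marker UMIs, against a median of 9 in the astrocyte-led nuclei. Of the 100 members with exactly 3 marker UMIs, 23 were astrocyte-led, compared with 312 of 320 members with 6 or more. Just outside the rule, 151 nuclei held 2 marker UMIs and met the other criteria, and 11 of those were astrocyte-led. The 108 members that were not astrocyte-led also had fewer UMIs, with a median of 1213.5 against 2430 in the astrocyte-led nuclei. Because of this, results below name the set they rest on, the 505 nuclei or the 397 astrocyte-led nuclei, a class that was defined after the counts were seen. Results on its marker content restate how it was defined.

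Among astrocyte-led nuclei, Slc1a3, the glutamate transporter GLAST, was detected in 98.2%. Gja1, the gap-junction protein connexin 43, was detected in 42.3%, Ntsr2, a neurotensin receptor, in 31.2%, and Aqp4, the water channel of endfeet, in 22.9%. All 4 were found together in 13 of 397 nuclei, and 130 had Slc1a3 alone, so single nuclei rested mostly on Slc1a3. These genes chose the nuclei, so their levels are only described.

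Outside the rule, the nuclei carried the transporters of an astrocyte. Slc1a2, the main glutamate transporter GLT-1, was detected in 98.2% of the astrocyte-led nuclei and stood at 10645 and 11015 CPM in the control pair, against 10515 and 10574 CPM in the CrT-KO pair, against at most 354 CPM in all other nuclei of a library. Gpc5, a cell-surface glypican, stood at 12601 and 14958 CPM in the control pair, against 14955 and 15370 CPM in the CrT-KO pair, against at most 206 CPM elsewhere. CPM here are UMIs of a gene per 1000000 UMIs of the same nuclei in a library, and since introns were counted they are compared between nuclei and not between genes. Over the whole list of 30 genes, the astrocyte-led sums ranged from 35926 to 38031 CPM over the libraries. The same list ranged from 6662 to 8088 CPM in OPC nuclei, from 629 to 844 CPM in oligodendrocyte nuclei and from 766 to 865 CPM in excitatory nuclei.

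**Figure D2:**
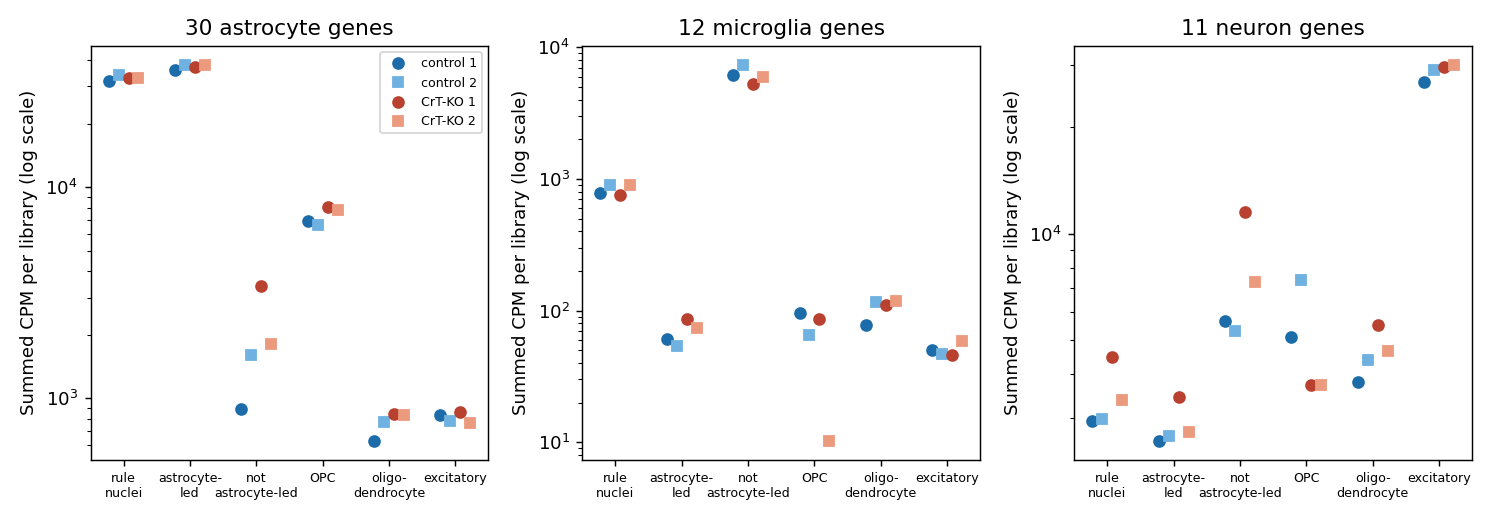
Summed CPM of 30 astrocyte, 12 microglia and 11 neuron markers per library (log scales), in all rule nuclei, astrocyte-led nuclei, the 108 other rule nuclei, and OPC, oligodendrocyte and excitatory nuclei, with controls in blue and CrT-KO in red. Microglial genes stand at 751 to 907 CPM in all rule nuclei and at 53.7 to 85.7 CPM in astrocyte-led nuclei, and neuronal genes in astrocyte-led nuclei stand below those in oligodendrocyte nuclei of the same library.

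UMIs of other cell types were present in the sums. The 12 microglia markers summed to 785 and 893 CPM in the control pair, against 751 and 907 CPM in the CrT-KO pair over the 505 nuclei, and to 53.7 to 85.7 CPM over the astrocyte-led nuclei, with Tyrobp and Tmem119 at 0 there. The 11 neuron markers found summed to 2588 and 2677 CPM in the control pair, against 3437 and 2748 CPM in the CrT-KO pair over the astrocyte-led nuclei. Both CrT-KO libraries were above both controls in this sum, and so were they over the 505 nuclei (2956 and 2978 against 4466 and 3390 CPM). Oligodendrocyte nuclei held 3806 to 5530 CPM of the same list and excitatory nuclei 26841 to 30090 CPM. The part of free neuronal RNA in the differences below was not tested. Vascular markers summed to 34.6 to 96.1 CPM, mainly Pdgfrb, with Cldn5, Pecam1 and Cdh5 at 0. Markers of ependymal and leptomeningeal cells summed to 69.2 and 93.3 CPM in the control pair, against 37.3 and 50.2 CPM in the CrT-KO pair. Foxj1 and Lum were at 0. Oligodendrocyte markers summed to 104 to 257 CPM, with Mog at 0 by the rule. OPC markers summed to 208 and 172 CPM in the control pair, against 265 and 386 CPM in the CrT-KO pair, with Olig1 at 0. Both CrT-KO libraries were below both controls for the ependymal and leptomeningeal list and above both for the OPC list, also over the 505 nuclei. The part of these UMIs in the differences below was not tested.

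The 20 genes that most set these nuclei apart were ranked by the lowest ratio, over the 4 libraries, of CPM in the 505 nuclei to CPM in all other nuclei. This ranking is a description with no test, and it holds Gja1, a gene of the rule. The astrocyte list led in 585 nuclei of the series, of which 397 were members, so the other nuclei held some of them. The ranking did not compare the members with OPC nuclei alone. Etnppl, an enzyme that breaks down phosphoethanolamine, led with ratios of 804 and 388 in the control pair, against 388 and 440 in the CrT-KO pair, at 122 and 268 CPM in the control pair, against 185 and 335 CPM in the CrT-KO pair. Of the genes in this ranking, 10 were in none of the gene lists used here: Etnppl, Ccdc190, Pdzph1, Slco1c1, Sdc4, Cyp4f15, Atp13a4, Aass, Nat8f6 and Ttll8. Slco1c1, a thyroid hormone and organic anion transporter, had ratios of 239 to 597, and Dio2, the deiodinase that activates thyroid hormone, had ratios of 152 to 498. Acsbg1, an acyl-CoA synthetase, had ratios of 258 to 365. Grin2c, an NMDA receptor subunit, had ratios of 176 to 620, and Slc7a10, a transporter of D-serine and other small amino acids, had ratios of 179 to 305. Gjb6, connexin 30, had ratios of 152 to 1072, and Mlc1, a membrane protein of perivascular astrocyte processes, had ratios of 162 to 345. Aass, which begins lysine breakdown, and Sdc4, the proteoglycan syndecan 4, had lowest ratios of 182 and 204. Fgfr3, a fibroblast growth factor receptor, and Prdm16, a zinc-finger transcription factor, closed the ranking with lowest ratios of 148 and 150. Nat8f6 overlaps Nat8f5, a member of the same gene family, so its count is uncertain.

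The share of astrocyte nuclei in the libraries was compared first. It was 0.773% (95% exact interval 0.596 to 0.986%) and 1.88% (1.62 to 2.18%) in control libraries, and 1.36% (1.13 to 1.62%) and 1.58% (1.33 to 1.86%) in CrT-KO. The control libraries lay on either side of both CrT-KO libraries. The means were 1.33 ± 0.785% in control libraries, and 1.47 ± 0.158% in CrT-KO (SD, n = 2 each), a difference of 0.143 percentage points (two-sided exact permutation test, p = 1, smallest possible p 0.33). Astrocyte-led nuclei were 0.604% and 1.47% of controls and 1.11% and 1.21% of CrT-KO nuclei, with the same order and the same p of 1 by the exact permutation test. Without control replicate 1 the difference over the 505 nuclei changed sign to -0.412 percentage points, so its direction rested on 1 library. Nuclei were sorted before loading, so these are shares of recovered nuclei and not of cells in the cortex.

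In the comparison between genotypes, UMIs were summed per library and tested with edgeR's quasi-likelihood test at an adjusted p under 0.1. Over the 505 nuclei, 4969 genes were tested and 1 was called (0.0201% of genes tested), Unc13c, which fell in CrT-KO. At an unadjusted p under 0.05 there were 255 genes (5.13%), and 1657 genes (33.3%) had libraries that did not overlap between genotypes, 820 higher and 837 lower in CrT-KO. Over the astrocyte-led nuclei, 4377 genes were tested and 5 were called (0.114%). Unc13c, Dlc1, Bnc2 and Ccdc171 fell (0.0914% of genes tested) and Lhfpl3 rose (0.0228%). Lhfpl3 belongs to the OPC list, which took part in choosing the astrocyte-led nuclei. In both sets the median log2 fold change over all genes tested was at 0.00 to 0.01. With 2 animals per genotype, p-values rest on the spread between these 4 libraries.

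**Figure D3:**
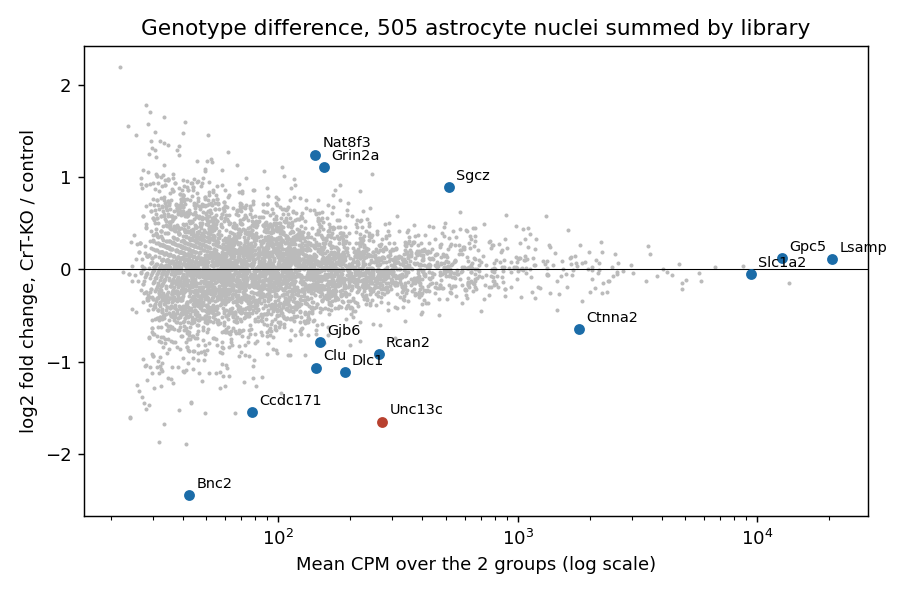
Log2 fold change of CrT-KO over control against mean CPM (log scale) for 4969 genes in UMIs summed over the 505 nuclei of each library. Unc13c (red) is the 1 gene called at an adjusted p under 0.1, the genes in blue are named in the text and did not pass in these nuclei, and Slc1a2, Gpc5 and Lsamp lie near 0.

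Unc13c encodes Munc13-3, one of the Munc13 proteins that prime vesicles for fusion. The gene (ENSMUSG00000062151) lies on the minus strand of chromosome 9, from 73479422 to 73968966 (GRCm38), and no other counted gene overlaps it. Over the 505 nuclei it gave 69 and 125 UMIs in the control pair, against 27 and 48 UMIs in the CrT-KO pair, which was 526 and 313 CPM in the control pair, against 87.8 and 159 CPM in the CrT-KO pair. Both CrT-KO libraries were below both controls. The means were 419 ± 151 CPM in control libraries, and 124 ± 50.6 CPM in CrT-KO (SD, n = 2 each), which was -1.65 ± 0.27 (SE) as a log2 fold change, at an adjusted p of 0.00459 by edgeR. In the astrocyte-led nuclei the values were 545 and 353 CPM in the control pair, against 101 and 174 CPM in the CrT-KO pair, which was -1.63 ± 0.27 (SE) as a log2 fold change, at an adjusted p of 0.00442 by edgeR. Of the 269 UMIs of Unc13c, 9 came from nuclei outside the astrocyte-led class.

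The fall of Unc13c was seen both in how many nuclei held it and in how many UMIs each held. It was detected in 15 of 50 astrocyte-led nuclei (30.0%, 95% exact interval 17.9 to 44.6%) in control 1 and in 44 of 137 (32.1%, 24.4 to 40.6%) in control 2. In CrT-KO it was detected in 16 of 103 (15.5%, 9.15 to 24.0%) and 23 of 107 (21.5%, 14.1 to 30.5%). Both CrT-KO shares were below both control shares. The mean share was 31.1 ± 1.50% in control libraries, and 18.5 ± 4.22% in CrT-KO (two-sided exact permutation test, p = 0.33, the smallest this design allows). When each nucleus of at least 1000 UMIs was thinned to 1000, leaving out 2 shallower nuclei in each library but control 1, the shares were 22.0% and 18.5% in control libraries, and 5.94% and 10.5% in CrT-KO. Nuclei that held Unc13c had on average 4.20 and 2.84 UMIs of it in control libraries, and 1.69 and 1.96 in CrT-KO, and no nucleus held more than 14. In oligodendrocyte nuclei, a cell type with little Unc13c, the share was 3.32% to 3.95% in every library at median depths of 1373 to 1493 UMIs, against median depths of 2220 to 2512 UMIs in the astrocyte-led nuclei.

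The same gene was examined in the 3 populations compared. In OPC nuclei Unc13c stood at 775 and 686 CPM in the control pair, against 665 and 664 CPM in the CrT-KO pair, which was -0.14 ± 0.19 (SE) as a log2 fold change, at an adjusted p of 0.954 by edgeR. Both CrT-KO libraries were below both controls in OPC nuclei too. In oligodendrocyte nuclei Unc13c was at 24.2 to 31.1 CPM (-0.08 ± 0.27 SE on the log2 scale) and in excitatory nuclei at 38.3 to 53.7 CPM (-0.04 ± 0.16 SE on the log2 scale). The libraries of the genotypes overlapped in oligodendrocyte and in excitatory nuclei. In a test of interaction, blocked by library, the change in the 505 nuclei differed from that in OPC nuclei by -1.56 (SE 0.34, adjusted p = 0.0824 by edgeR), from that in oligodendrocyte nuclei by -1.58 (SE 0.37, adjusted p = 0.0812 by edgeR) and from that in excitatory nuclei by -1.57 (SE 0.28, adjusted p = 0.000125 by edgeR), all on the log2 scale. With the astrocyte-led nuclei the interactions were -1.52, -1.53 and -1.54. DESeq2 called 0 genes in each of these comparisons, with 49, 34 and 98 genes at an unadjusted p under 0.05. With doublets left out, edgeR called 0 genes against OPC nuclei, with 210 at an unadjusted p under 0.05, and it called no gene in the direction of Unc13c there without control replicate 1 or without CrT-KO replicate 1. Against oligodendrocyte nuclei it called 0 genes without control replicate 1, with 379 at an unadjusted p under 0.05, and 1 without control replicate 2.

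**Figure D4:**
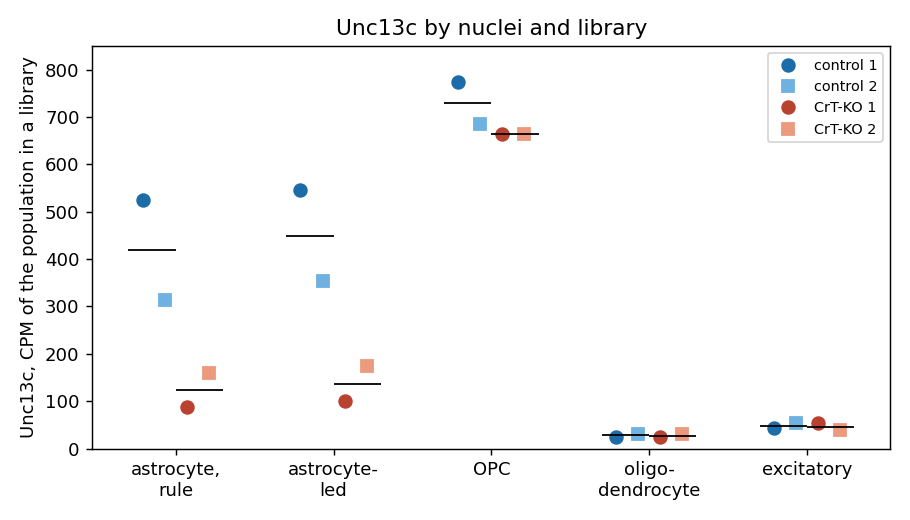
Unc13c in CPM (axis from 0) for each library, in the 505 rule nuclei, the 397 astrocyte-led nuclei, and OPC, oligodendrocyte and excitatory nuclei, with controls in blue, CrT-KO in red and a horizontal line at each group's mean. In the astrocyte nuclei both CrT-KO libraries sit below both controls. They do so in OPC nuclei too, where all 4 libraries lie between 664 and 775 CPM.

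Unc13a, the Munc13 form of most neuronal synapses, gave 2 and 5 UMIs in the control pair, against 6 and 3 UMIs in the CrT-KO pair over the astrocyte-led nuclei, and Unc13d gave none. Unc13b stood at 86.5 and 67.9 CPM in the control pair, against 67.1 and 38.6 CPM in the CrT-KO pair, which was -0.47 ± 0.42 (SE) as a log2 fold change, at an adjusted p of 0.999 by edgeR. Of 14 genes on the vesicle priming list, 9 were tested, and Unc13c was the 1 called, beside 5 of 4377 (0.114%) for all genes tested. The list and Unc13c were chosen with earlier results of these data known, so this count is no result about the list. The median log2 fold change of these 9 was 0.03, beside 0.01 for all genes tested. The active-zone scaffold genes Rims1 and Rims2 stood at 237 to 302 CPM and 421 to 436 CPM, below the highest values of 2063 and 1220 CPM in all other nuclei of a library.

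The other genes called in astrocyte-led nuclei differed in how many nuclei carried them. Dlc1, a GTPase-activating protein, gave 32 and 79 UMIs in the control pair, against 21 and 27 UMIs in the CrT-KO pair, spread over 16, 44, 17 and 22 nuclei (log2 fold change -1.40 with SE 0.28, adjusted p = 0.0364 by edgeR). Ccdc171, a coiled-coil protein gene, gave 14 and 43 UMIs in the control pair, against 10 and 7 UMIs in the CrT-KO pair, over 10, 26, 10 and 6 nuclei (log2 fold change -1.90 with SE 0.40, adjusted p = 0.0520 by edgeR). Bnc2, a zinc-finger gene, gave 5 and 40 UMIs in the control pair, against 1 and 5 UMIs in the CrT-KO pair (log2 fold change -2.96 with SE 0.60, adjusted p = 0.0364 by edgeR). A single nucleus of control 2 held 29 of its 40 UMIs there, and a single nucleus of control 1 held all 5. Bnc2 and Ccdc171 lie near each other on chromosome 4 of GRCm38, from 84275095 to 84675275 and from 83525545 to 83864670. Lhfpl3, which is among the OPC markers, gave 2 and 18 UMIs in the control pair, against 28 and 54 UMIs in the CrT-KO pair (log2 fold change 1.88 with SE 0.40, adjusted p = 0.0549 by edgeR), and a single nucleus of CrT-KO 2 held 35 of those 54. Bnc2 and Lhfpl3 thus rested on 1 nucleus each in their highest library, while Unc13c, Dlc1 and Ccdc171 did not. By DESeq2, Unc13c alone was called in these nuclei (adjusted p = 0.0957). Over the 505 nuclei the adjusted p by edgeR was 0.144 for Dlc1, Bnc2 and Ccdc171 and 0.743 for Lhfpl3.

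Genes with the smallest p that did not pass over the 505 nuclei, and whose libraries did not overlap, are given as values. Clu, the secreted chaperone clusterin, stood at 236 and 163 CPM in the control pair, against 97.5 and 79.7 CPM in the CrT-KO pair, which was -1.07 ± 0.28 (SE) as a log2 fold change, at an adjusted p of 0.304 by edgeR. Rcan2, a regulator of calcineurin, gave 37 and 158 UMIs in the control pair, against 52 and 62 UMIs in the CrT-KO pair (-0.92 ± 0.23 SE on the log2 scale). Ctnna2, the neural alpha-catenin, which overlaps Lrrtm1, gave 342 and 725 UMIs against 401 and 439 (-0.65 ± 0.16 SE on the log2 scale). Both had an edgeR adjusted p of 0.185. Grin3a, an NMDA receptor subunit gene that overlaps Ppp3r2, had a log2 fold change of -1.34 (SE 0.36). In control 1, 18 of its 26 UMIs in astrocyte-led nuclei came from nuclei with Gfap, and in astrocyte-led nuclei without Gfap the value was -0.74 (adjusted p = 0.999 by edgeR). Bmp6, a bone morphogenetic protein gene that overlaps Txndc5, had -1.56 (SE 0.42). Of the 67 UMIs of Bmp6, 34 came from nuclei outside the astrocyte-led class.

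On the other side, Nat8f3, of a family of N-acetyltransferases with near-identical copies, gave 11 and 34 UMIs in the control pair, against 78 and 45 UMIs in the CrT-KO pair, all from astrocyte-led nuclei (log2 fold change 1.25 with SE 0.29, adjusted p = 0.156 by edgeR). Its count is uncertain where reads could be split between copies. Sgcz, the membrane protein zeta-sarcoglycan, had a difference of 0.89 (SE 0.20, adjusted p = 0.144 by edgeR) over the 505 nuclei and 0.55 (SE 0.21, adjusted p = 0.994 by edgeR) over the astrocyte-led nuclei. Grin2a, an NMDA receptor subunit of neurons, had 1.11 (SE 0.27, adjusted p = 0.177 by edgeR) over the 505 and 0.82 (SE 0.30, adjusted p = 0.994 by edgeR) over the astrocyte-led nuclei. Grin2a is itself on the neuron marker list. The neuron marker sum was also higher in both CrT-KO libraries, and its part in the values of Sgcz and Grin2a was not tested. Cdh18, Il1rapl1, Khdc4, Phactr1 and Zc3h12b completed these genes, with log2 fold changes of 0.91, 0.58, 1.11, 0.59 and 0.85, and of 0.50, 0.53, 1.11, 0.57 and 0.81 over the astrocyte-led nuclei. The value of Cdh18 was 0.42 with doublets left out and 0.27 without the nuclei richest in neuronal UMIs. None of these genes passed the test.

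Creatine genes other than Ckb were scarcely detected in astrocyte nuclei. Slc6a8 gave 0 and 4 UMIs in the control pair, against 0 and 0 UMIs in the CrT-KO pair over the 505 nuclei, all 4 from astrocyte-led nuclei of control 2. A count of 0 allows up to 22.9 CPM in control 1 and 9.75 and 9.96 CPM in CrT-KO (3 counts of the library's sum), so loss of the targeted transcript was not detectable within these nuclei at this depth. Gatm, the first enzyme of creatine synthesis, gave 7 and 10 UMIs in the control pair, against 12 and 12 UMIs in the CrT-KO pair (log2 fold change 0.25, SE 0.53, not called by edgeR), and its direction turned to -0.40 without control replicate 2. Of these, 14 came from nuclei outside the astrocyte-led class, and control 1 had none in its astrocyte-led nuclei. Gamt, the second enzyme, and the muscle kinase Ckm gave no UMI in any library. Ckb, the cytosolic brain-type creatine kinase, stood at 138 and 105 CPM in the control pair, against 119 and 88.9 CPM in the CrT-KO pair over the astrocyte-led nuclei, which was -0.14 ± 0.31 (SE) as a log2 fold change, at an adjusted p of 0.999 by edgeR. The genotypes overlapped. The mitochondrial kinases Ckmt1 and Ckmt2 gave 4 and 2 UMIs in all over the 505 nuclei, and Slc16a12, a transporter of creatine precursor and creatine, gave 10.

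Among genes of glutamate and GABA handling no difference between the genotypes was called. Of 15 genes, 13 were tested in the astrocyte-led nuclei and 0 were called by edgeR, with 0 at an unadjusted p under 0.05. DESeq2 called Unc13c alone over all genes, so it called none of these or of the lists below, with 25 genes of all tested at an unadjusted p under 0.05. The libraries did not overlap for 4 of the 13, all lower in CrT-KO, against 32.7% of all genes tested in either direction and 16.1% lower, and their median log2 fold change was -0.15. For Slc1a2, the difference was -0.04 (SE 0.12). Glul, the glutamine synthetase, stood at 415 and 469 CPM in the control pair, against 376 and 398 CPM in the CrT-KO pair (-0.22 ± 0.20 SE on the log2 scale). Glud1, glutamate dehydrogenase, had -0.20 (SE 0.20), and the cystine-glutamate exchanger gene Slc7a11 had -0.15 (SE 0.23).

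The potassium, water and pH list counted 13 tested genes of 18 in the astrocyte-led nuclei, of which 0 were called by edgeR. An unadjusted p under 0.05 was found for 1 of them, beside 4.39% of all genes tested. That gene was Gjb6, which stood at 208 and 218 CPM in the control pair, against 104 and 151 CPM in the CrT-KO pair (log2 fold change -0.76 with SE 0.27, adjusted p = 0.988 by edgeR). Both CrT-KO libraries were below both controls. Slc4a4, a sodium bicarbonate cotransporter, had 0.06 (SE 0.15), and Dtna and Dmd, of the dystrophin complex that anchors Aqp4 at endfeet, had -0.25 (SE 0.14) and -0.06 (SE 0.16). The list's median was -0.16, with 2 of the 13 genes higher and 4 lower without overlap. Of all genes tested, 16.7% were higher and 16.1% lower without overlap.

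In the glycogen, glycolysis and lactate list, 14 of 26 genes found were tested, 0 were called by edgeR and 0 had an unadjusted p under 0.05, and the median was -0.01. Phka1 and Phkg1, subunits of phosphorylase kinase, had log2 fold changes of 0.24 (SE 0.20) and -0.05 (SE 0.19), and Pygb, the brain glycogen phosphorylase, had 0.21 (SE 0.21). In the lipid and cholesterol list, 23 of 26 were tested, 0 were called by edgeR, and 1 gene was higher and 1 lower, Clu, at an unadjusted p under 0.05. Of all genes tested, 4.39% had such a p. The median was -0.02. Mertk, an engulfment receptor, stood at 1939 and 2036 CPM in the control pair, against 1886 and 2041 CPM in the CrT-KO pair. Acsl3, an acyl-CoA synthetase, had -0.18 (SE 0.16), Plpp3, a lipid phosphate phosphatase, had 0.01 (SE 0.17), and Megf10, another engulfment receptor, had 0.03 (SE 0.20).

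Receptor and calcium genes had 18 of 28 tested and 0 called by edgeR, with a median of -0.02. Of these, 3 had an unadjusted p under 0.05, beside 4.39% of all genes tested. Gabbr2, a subunit of the GABA-B receptor, stood at 433 and 483 CPM in the control pair, against 742 and 572 CPM in the CrT-KO pair (0.49 ± 0.20 SE on the log2 scale), and Gabrg1, a GABA-A receptor subunit, had 0.59 (SE 0.27). Dio2 stood at 268 and 198 CPM in the control pair, against 130 and 139 CPM in the CrT-KO pair (-0.72 ± 0.27 SE on the log2 scale). Each had an edgeR adjusted p of 0.994 to 0.999. Gabrb1, Plcb1, Grm3 and Gria2 differed by -0.03 (SE 0.13), -0.09 (SE 0.17), -0.14 (SE 0.15) and 0.19 (SE 0.16).

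Synapse organizers, adhesion and matrix genes had 21 of 26 tested, 0 called by edgeR and 0 at an unadjusted p under 0.05, with a median of 0.03. Lsamp and Ntm, adhesion proteins of the IgLON family, had 0.14 (SE 0.12) and 0.05 (SE 0.12). Transcription factors had 23 of 29 tested and 0 called by edgeR, with a median of -0.03. Zbtb20, Npas3, Rora and Nfia lay between -0.12 and 0.04. Zfhx4 stood at 173 and 144 CPM in the control pair, against 74.6 and 65.7 CPM in the CrT-KO pair (log2 fold change -1.13 with SE 0.31, adjusted p = 0.474 by edgeR). Id4, Npas2, Nfix and Emx2 also had an unadjusted p under 0.05, at -0.75, -0.47, 0.76 and 1.20, beside 192 of 4377 (4.39%) for all genes tested. In the list of Notch, Shh, FGF and BMP signalling, 13 of 19 were tested and 0 called by edgeR, with a median of 0.04. An unadjusted p under 0.05 was found for 1 of them, lower in CrT-KO, beside 4.39% of all genes tested. The neurotrophin receptor gene Ntrk2 had 0.04 (SE 0.15), and Fgfr2 and Bmpr1b had -0.14 (SE 0.16) and 0.16 (SE 0.18).

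**Figure D5:**
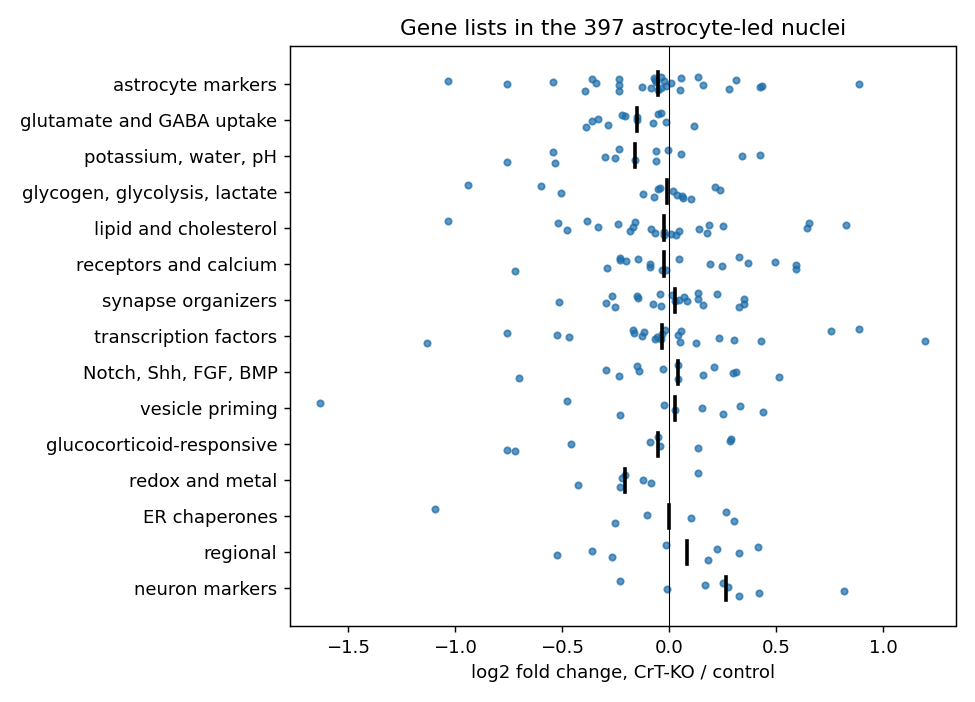
Log2 fold change of CrT-KO over control in the 397 astrocyte-led nuclei for the tested genes of 15 lists, with 1 point per gene and a vertical bar at the list's median. The medians lie from -0.21 for redox and metal genes to 0.26 for neuron markers, and the gene farthest left is Unc13c.

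Stress-related lists were sparsely detected. Of 33 genes of reactive astrocytes, 2 were tested in the astrocyte-led nuclei, 15 gave no UMI, and 0 were called by edgeR. Serpina3n, Lcn2 and the complement gene C3 were among those at 0. Stat3, a mediator of cytokine signalling, stood at 108 to 130 CPM (-0.08 ± 0.29 SE on the log2 scale), and Maob, monoamine oxidase B, at 104 to 234 CPM (-0.28, SE 0.30). Glucocorticoid-responsive genes had 9 of 18 tested and 0 called by edgeR, with a median of -0.05. Nr3c2, the mineralocorticoid receptor, had 0.29 (SE 0.19), and the direct target Tsc22d3 stood at 190 and 232 CPM in the control pair, against 130 and 189 CPM in the CrT-KO pair. Chaperones of the endoplasmic reticulum had 6 of 15 found tested and 0 called by edgeR, and Hspa5, the chaperone BiP, gave 5, 14, 8 and 2 UMIs in control 1, control 2, CrT-KO 1 and CrT-KO 2. Redox and metal genes had 7 of 17 tested and 0 called by edgeR, with a median of -0.21, led by the zinc transporter Slc39a12 (-0.08, SE 0.20) and Prdx6, a peroxiredoxin (-0.21, SE 0.24). Genes that differ between brain regions had 8 of 20 tested and 0 called by edgeR, with a median of 0.08. Of these 5 lists, the glucocorticoid-responsive genes held 2 at an unadjusted p under 0.05, Gjb6 and Dio2, and the others held none, beside 192 of 4377 (4.39%) for all genes tested.

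The nuclei were also divided by Gfap, the intermediate filament protein that is abundant in astrocytes of white matter and the pial surface and low in most astrocytes of grey matter. Of the astrocyte-led nuclei, 8 of 50 and 7 of 137 in control libraries, and 4 of 103 and 6 of 107 in CrT-KO held a Gfap UMI, which was 16.0% (95% exact interval 7.17 to 29.1%) and 5.11% (2.08 to 10.2%) in control libraries, and 3.88% (1.07 to 9.65%) and 5.61% (2.09 to 11.8%) in CrT-KO. Control 1 stood above the other libraries. Gfap gave 11 and 12 UMIs in the control pair, against 4 and 6 UMIs in the CrT-KO pair, too few for the test, so it cannot be said whether it differed. The split is a range of detection in sparse counts and not a cell type, since a nucleus without a Gfap UMI may express the gene.

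Between the sides, 30 of 2097 genes (1.43%) were called over the 505 nuclei, 8 higher and 22 lower in the nuclei with Gfap. Several of the lower genes belonged to the nuclei that were not astrocyte-led: Inpp5d, a phosphatase of immune cells, gave no UMI on the Gfap side. Within the astrocyte-led nuclei, 4 of 1640 genes (0.244%) were called, and these are described. Luzp2, a leucine zipper protein gene, stood at 6953 CPM in nuclei without Gfap and 2772 CPM in nuclei with it (log2 difference -1.58, SE 0.24, edgeR adjusted p = 2.39e-07). Slco1c1 stood at 1030 and 413 CPM (-1.45, SE 0.34, edgeR adjusted p = 0.0131). Unc5c, a netrin receptor, stood at 275 and 930 CPM (1.60, SE 0.35, edgeR adjusted p = 0.00436), and Cpne8, a copine, stood at 23.4 and 310 CPM (3.41, SE 0.83, edgeR adjusted p = 0.0195), with 13 of its 18 UMIs on the Gfap side from control 2. CPM here are over all 4 libraries together.

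Genes that are known in Gfap-rich astrocytes are given as levels. Apoe stood at 689 CPM with Gfap and 264 CPM without, and Clu at 327 CPM with Gfap and 139 CPM without. Vim, another intermediate filament, gave 3 UMIs (51.7 CPM) with Gfap and 7 UMIs (7.46 CPM) without. Slc1a2 was at 11038 CPM with Gfap and 10703 CPM without. Unc13c gave 6 UMIs (103 CPM) with Gfap and 254 UMIs (271 CPM) without, and in astrocyte-led nuclei without Gfap the genotype difference in Unc13c was -1.73 (SE 0.27, adjusted p = 0.00222 by edgeR).

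Beyond Unc13c, the comparison of the genotype effect with other populations called few genes. Against OPC nuclei 11 of 4663 genes (0.236%) were called, against oligodendrocyte nuclei 4 of 8506 (0.047%) and against excitatory nuclei 3 of 11194 (0.0268%). With the astrocyte-led nuclei these counts were 6 of 4645 (0.129%), 5 of 8352 (0.0599%) and 5 of 10848 (0.0461%). Dlc1 had an interaction of -1.69 (SE 0.36, adjusted p = 0.0824 by edgeR) against OPC nuclei, with log2 fold changes of -1.12 in the 505 nuclei and 0.58 in OPC nuclei. Hif3a, a hypoxia-inducible factor gene, had an interaction of -1.54 (SE 0.32, adjusted p = 0.0302 by edgeR) against oligodendrocyte nuclei, where it rose by 1.39 (edgeR adjusted p = 0.0289), beside -0.21 in the 505 nuclei. Grin3a had -2.16 (SE 0.50, adjusted p = 0.0812 by edgeR) against the same nuclei. Fgf1, a fibroblast growth factor, and Arhgap26 (ENSMUSG00000118193), the gene of a GTPase-activating protein, had interactions of 1.47 and 1.60 against excitatory nuclei. Both fell in excitatory nuclei, by 1.52 and 1.40 on the log2 scale, beside -0.06 and 0.19 in the 505 nuclei.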

How the data were processed

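Per the labels and the study's methods, nuclei of the right cortex were sorted by flow cytometry and each library was made with a 10x Genomics droplet kit, and the authors counted UMIs with Cell Ranger 3.1.0 against GRCm38 (mm10), with the whole gene body as exon. The processing notes also name FastQC and Seurat 3.1.4. The deposited matrices hold raw counts, with no cell types. Whether counting used strand is not given in the sources used here. Coordinates came from GENCODE vM21, which held 99.5% of 21933 genes by identifier.

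Members and gene lists were chosen with earlier results of these data known. OPC nuclei had at least 2 Pdgfra UMIs, oligodendrocyte nuclei at least 3 UMIs of Mog, Mag and Mobp (15 per 10000) and excitatory nuclei at least 3 of Slc17a7, each without the other types' exclusion genes and with under 3 astrocyte UMIs. They numbered 232, 3269 and 1866. UMIs were summed per library and tested with edgeR 4.0.16 (TMM, filterByExpr, quasi-likelihood, Benjamini-Hochberg over all genes tested, threshold 0.1), in R 4.3.3. Genes of the rules were not tested. Genes of the marker lists that set the astrocyte-led class, such as Lhfpl3, Clu and Gjb6, were tested within it. Standard errors were the log2 fold change divided by the root of its F value. Interactions and the Gfap split had the library as a block. Doublets were marked by Scrublet in scanpy 1.11.5 and kept. Fits were checked on simulated data for the genotype comparison, with 4697 genes: 40 of 92 changes of 1 on the log2 scale and 84 of 90 changes of 2 were recovered, with 6 false calls.

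Named genes were the creatine and rule genes, called genes, Unc13c, up to 8 each way with the smallest p among genes that did not pass (at least 50 UMIs, no overlap), up to 4 per list by mean CPM and any called member, the 20 leading genes, up to 10 each way in the Gfap split and up to 5 each way in the interactions. List members with an unadjusted p under 0.05, other Munc13 genes, Serpina3n, Lcn2, C3, genes called in astrocyte-led nuclei and levels by Gfap were named after their values were seen. Alternatives were DESeq2 1.42.0 or its size factors, no filter, a replicate block, each library left out, doublets left out, a stricter rule, at least 1000 UMIs, nuclei past the 75th percentile of neuronal share left out and a threshold of 0.05. Astrocyte-led nuclei and a limit of 5000 UMIs were chosen after seeing the data. Some list members covered by this rule are not reported here.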

Additional observations from a re-analysis of the deposited data

Results flagged for a closer look

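In each result here the genotype effect in the 505 astrocyte nuclei differed from that in another population by an interaction test (edgeR, library as a block, adjusted p under 0.1). DESeq2 called 0 genes in each comparison, where 49 (OPC), 34 (oligodendrocyte) and 98 (excitatory) had an unadjusted p under 0.05.

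Against OPC nuclei, Nell1, Zfp385b, Zfp804b, Grin2a and Unc5d had interactions of 3.12, 2.76, 2.61, 2.44 and 2.25 on the log2 scale. Their log2 fold changes in OPC nuclei were -1.96, -2.32, -2.01, -1.28 and -1.71, beside 0.86, 0.49, 0.65, 1.11 and 0.44 in the astrocyte nuclei. The 11 neuron markers summed to 5096 and 7403 CPM in control OPC nuclei and 3717 and 3719 CPM in CrT-KO OPC nuclei. Grin2a is on that list, and so are Syt1 and Kcnip4, which were also called (1.28 and 1.24). The neuron list led in 7 of the 232 OPC nuclei, 2 and 4 in the control pair and 1 and 0 in the CrT-KO pair. Their median was 9857 UMIs, against 2747 in nuclei led by the OPC list. The part of neuronal UMIs in these interactions was not tested. With the astrocyte-led nuclei, Grin2a was still called (2.12, adjusted p = 0.0669 by edgeR). Nell1, Zfp385b, Zfp804b and Unc5d then had adjusted p of 0.193 to 0.365 by edgeR. Dlc1 and Unc13c had interactions of -1.69 and -1.56 against OPC nuclei, and -1.97 and -1.52 with the astrocyte-led nuclei, both called. Over the 505 nuclei edgeR called no gene with an interaction below 0 without control replicate 1 or without CrT-KO replicate 1. With doublets left out it called 0 genes either way, with 210 at an unadjusted p under 0.05.

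Against oligodendrocyte nuclei, Erbb4, a neuregulin receptor gene, had an interaction of 0.92, which was not called with the astrocyte-led nuclei (0.84, adjusted p = 0.750). Grin3a, Unc13c and Hif3a had -2.16, -1.58 and -1.54, and with the astrocyte-led nuclei -2.11, -1.53 and -1.55, all 3 called. Over the 505 nuclei edgeR called 0 genes without control replicate 1, where 379 had an unadjusted p under 0.05, and 1 without control replicate 2.

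Against excitatory nuclei, Arhgap26_ENSMUSG00000118193 had 1.60, Fgf1 had 1.47 and Unc13c had -1.57. With the astrocyte-led nuclei these were 1.61, 1.46 and -1.54, all 3 called.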

How the results depend on the processing

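The fall of Unc13c was called in all 21 fits of the genotype comparison, at log2 fold changes from -2.17 to -1.25 and adjusted p of at most 0.0957. The count of genes called in that comparison, 1 over the 505 nuclei, stayed at 1 with DESeq2, with its size factors, with doublets left out and at a threshold of 0.05. It was 7 with no filter on low counts, 25 with a replicate block, 8 with at least 5 marker UMIs and 25 per 10000, 12 with at least 1000 UMIs, 7 without the nuclei richest in neuronal UMIs, 5 without nuclei over 5000 UMIs, and 5 in the astrocyte-led nuclei, with or without Gfap nuclei. Leaving out 1 library gave 5 to 16 genes, or 4 to 13 in the astrocyte-led nuclei. These fits pool the spread, and the lone library of an arm is assumed to vary like the others. Replicate numbers were not treated as pairs in the main fit. The correlation of same-numbered libraries' deviations was 0.0585 over 3828 genes. With only 2 pairs, this value cannot show whether the libraries were paired. Against OPC nuclei the 11 genes became 0 with DESeq2, 32 with no filter, 0 without doublets, 6 with astrocyte-led nuclei and 4 to 19 with a library left out. Against oligodendrocyte nuclei 4 became 0 with DESeq2 and 0 to 5 with a library left out. Against excitatory nuclei 3 became 0 with DESeq2, 5 without doublets, 5 with astrocyte-led nuclei and 3 to 8 with a library left out. DESeq2's counts at an unadjusted p under 0.05 were 49, 34 and 98. The 30 genes of the Gfap split became 9 with DESeq2, 153 with no filter, 1 after thinning to 1000 UMIs, 4 in the astrocyte-led nuclei and 6 to 27 with a library left out, and were 28 with no library block and 42 without doublets. The difference in share ranged from -0.412 percentage points (without control replicate 1, reversed) to 0.698 (without control replicate 2). Of 19 genes followed through the fits whose filter they passed, Gatm over the 505 nuclei ranged from -0.40 (reversed, without control replicate 2) to 0.63 (without control replicate 1). In astrocyte-led nuclei with a library left out it ranged from 0.64 to 5.98, the latter without control replicate 2, where the remaining control held no Gatm UMI, so that value depends on the prior count and is no fold. Gatm, Bnc2 and Bmp6 did not pass the filter in every fit. Ckb reversed to 0.015 in astrocyte-led nuclei without CrT-KO replicate 2, and 288 values kept direction and side of the threshold, while 80 passed it where the value over the 505 nuclei had not. The cause of these changes was not tested. With 2 animals per genotype, the smallest exact permutation p is 0.33, and sums of 131237 to 399553 UMIs leave genes of low level undetected.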
